A study of Mus musculus with 6 samples.

Results

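The 8 genes followed here encode surface proteins: Ly6a and Kit, whose products define the LSK gate, and Ly6e, Cd34, Flt3, Procr, Eng and Ptprc, which are used to describe or subdivide blood stem and progenitor cells. They were taken by symbol from a table of read counts per gene, and all 8 were found among its 49671 gene identifiers. RNA was sequenced in 6 libraries of mouse bone marrow from the BALB/c strain. In 3 libraries (shCxxc5) the marrow, first enriched for stem and progenitor cells, had received a retroviral hairpin that knocks down Cxxc5. In the other 3 (shCtrl) the hairpin targeted no mouse gene. All 6 were therefore infected, GFP-positive and sorted as LSK cells, and no uninfected or unsorted sample was analysed here. Both groups carry the replicate numbers 2, 3 and 4. Each library is a pool over several animals, made from 20000 to 50000 sorted cells per the labels' protocols. The labels give neither the age of the mice nor what a replicate number stands for, so the p-values here reflect library-to-library spread alone, and that spread may be technical.

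LSK stands for Lineage-negative, Sca-1-positive, Kit-positive. Ly6a encodes Sca-1, a small GPI-anchored protein of the Ly6 family that interferon induces, and BALB/c mice carry the Ly6 haplotype in which fewer marrow stem cells display Sca-1. Kit encodes the receptor for stem cell factor, and Lineage-negative means that antigens of mature blood cells are low. Within the gate, CD34 and FLT3 protein are low on long-term stem cells and rise as multipotent and lymphoid-primed progenitors form, whereas EPCR (Procr) and endoglin (Eng) are used to enrich for stem cells. The gate selects on surface protein, while the libraries measure mRNA.

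Cxxc5 encodes a protein whose CXXC zinc finger binds unmethylated CpG, so the CpG content of the members' promoters is given as sequence context. Windows of 250 bases upstream of RefSeq transcript starts (GRCm38.p6) were matched by symbol for 6 of the 8 genes, with 8 windows in all. The 3 that lie outside the annotated transcripts, apart from the final bases of the Cd34 window, are printed 5′ to 3′ on the gene's strand with every CpG in capitals. They held 4 to 13 CpG, while the windows not printed held 2 to 18. The Cd34 window is chr1:194938571-194938820 on the plus strand, the Flt3 window chr5:147400490-147400739 on the minus strand, and the Eng window chr2:32646345-32646594 on the plus strand.
Cd34: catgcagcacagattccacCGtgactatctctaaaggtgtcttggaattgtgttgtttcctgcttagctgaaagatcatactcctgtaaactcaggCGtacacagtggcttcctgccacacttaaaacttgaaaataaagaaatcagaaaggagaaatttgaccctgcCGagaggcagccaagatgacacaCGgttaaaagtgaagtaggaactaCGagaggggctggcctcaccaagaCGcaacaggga
Flt3: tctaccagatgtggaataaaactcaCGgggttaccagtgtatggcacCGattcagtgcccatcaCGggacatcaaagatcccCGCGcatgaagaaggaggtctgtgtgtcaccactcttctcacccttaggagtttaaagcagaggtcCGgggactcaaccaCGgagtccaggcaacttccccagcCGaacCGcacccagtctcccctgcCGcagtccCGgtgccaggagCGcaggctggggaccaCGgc
Eng: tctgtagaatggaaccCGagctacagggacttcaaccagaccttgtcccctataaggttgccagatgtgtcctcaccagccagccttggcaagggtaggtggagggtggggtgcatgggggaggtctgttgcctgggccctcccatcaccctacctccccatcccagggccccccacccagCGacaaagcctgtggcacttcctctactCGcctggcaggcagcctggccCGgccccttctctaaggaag

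The Flt3 window held 13 CpG, more than 68.5% of the 32851 windows of 27025 genes. The Cd34 window held 6, equal to the median over all windows, and the Eng window held 4. Among the windows not printed, which reach into annotated transcripts, those of Kit held 17 and 18 CpG, that of Procr 13, and those of Ptprc 2 and 4. The members' promoters thus ran from CpG-rich to CpG-poor. Both strands were also searched for 4 short motifs that blood and interferon factors are known to bind. The interferon response core GAAANNGAA, the STAT motif TTCNNNGAA (the matches of these can share bases) and the RUNX motif TGTGGT were found in 0 of the 8 windows, against 7.13%, 7.02% and 14.0% of all windows. The GATA motif AGATAA was found in 1 Ptprc window and in 9.99% of all windows. A match, or its absence, describes letters in these windows only.

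Total counts ran from 15002414 to 27754019 per library. All 8 members had at least 166 reads in every library, so their counting error was small: 7.76% of the value at the lowest Procr count and 3.24% at the lowest Ly6a count. These errors cover counting only. Cxxc5 itself was at 57.9 to 82.2 CPM (counts scaled to library size) in shCtrl and 6.74 to 17.9 CPM in shCxxc5, without overlap, so the target went with the labels. The libraries numbered 2 stood apart. A chi-square per gene, which is near 1 for counting noise alone, was 2.33 and 2.28 between replicates 3 and 4 of the same group, 8.38 to 10.6 between the groups among replicates 3 and 4, and 82.5 to 168 between a replicate 2 library and any other. Results are therefore given with and without replicate 2.

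**Figure D1:**
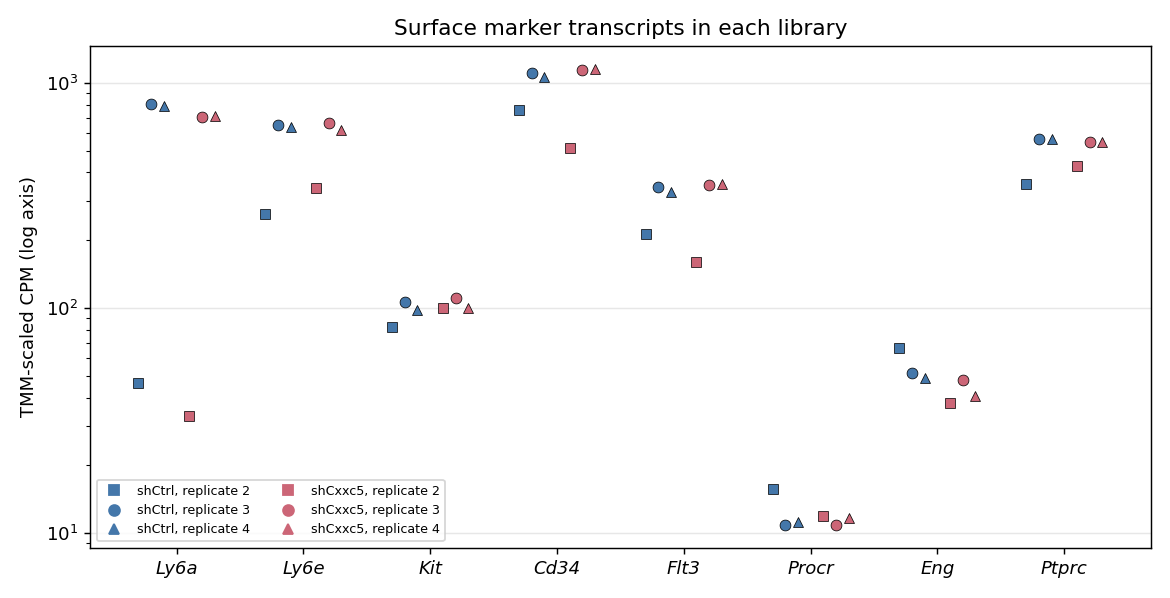
TMM-scaled CPM of the 8 surface marker genes (vertical axis, log scale) in each of the 6 libraries, by hairpin and replicate number. Ly6a is at 46.4 and 33.1 CPM in the replicate 2 libraries and at 703 to 804 CPM in the other 4, while Kit stays between 82.4 and 110.4 CPM.

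Ly6a and Kit, the genes of the sort itself, behaved unlike each other. Ly6a lies at chr15:74994877-74998031 on the minus strand and Kit at chr5:75574916-75656722 on the plus strand (GRCm38, with gene spans from GENCODE M21 here and throughout). Ly6a was at 46.4, 804 and 786 CPM in shCtrl replicates 2, 3 and 4, and at 33.1, 703 and 711 CPM in the shCxxc5 libraries of the same numbers. The replicate 2 libraries were the low ones in both groups, and the other 4 lay within 1.14-fold of each other. Against the mean of replicates 3 and 4, replicate 2 was 17.1-fold lower in shCtrl and 21.3-fold lower in shCxxc5. Kit was at 82.4, 106.6 and 97.9 CPM in shCtrl and at 99.6, 110.4 and 99.8 CPM in shCxxc5. For Kit, replicate 2 overlapped replicates 3 and 4, being 1.24-fold lower in shCtrl and 1.05-fold lower in shCxxc5. In a fit with the group as a term, Ly6a in replicate 2 fell by 4.25 on the log2 scale (SE 0.0976, adjusted p = 5.22e-06, edgeR's quasi-likelihood test with Benjamini-Hochberg adjustment). That placed it 52nd by size of change among 14637 genes tested. Kit did not pass in the same edgeR fit, with a log2 difference of -0.19 (SE 0.0836, adjusted p = 0.117) and an interval of 2 SE from -0.36 to -0.03. Without shCxxc5 replicate 2 it passed (-0.32, adjusted p = 2.48e-05, edgeR). Fewer cells of a type and less RNA per cell cannot be told apart in such pooled libraries.

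With the hairpin, Ly6a was lower in every pair of equal number, by log2 ratios of -0.49, -0.19 and -0.14 in pairs 2, 3 and 4. In replicates 3 and 4, where the groups did not overlap, it fell by 0.16 (SE 0.0314, adjusted p = 0.000327, edgeR), a difference of 1.12-fold. Over all 6 libraries the groups overlapped, at 545.6 ± 432.4 CPM in shCtrl and 482.5 ± 389.2 CPM in shCxxc5 (SD, n = 3 each). The log2 fold change there was -0.18 with an SE of 1.28, and edgeR's adjusted p was 0.993. Kit was higher in every shCxxc5 library than in the shCtrl library of its number, by 0.27, 0.05 and 0.03 on the log2 scale. The Kit difference passed the test neither in 6 libraries (adjusted p = 0.940, edgeR) nor in replicates 3 and 4 (0.619), where its 2 SE interval ran from -0.06 to 0.15.

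Ly6e, a relative of Ly6a in the same stretch of chromosome 15 (chr15:74955051-74959905, plus strand) and likewise interferon-inducible, was at 260.9, 650.1 and 636 CPM in shCtrl and at 339.7, 665.9 and 619.7 CPM in shCxxc5. Again both replicate 2 libraries lay below the other 4, by 2.46-fold in shCtrl and 1.89-fold in shCxxc5. In replicate 2 it fell by 1.11 on the log2 scale (SE 0.0967, adjusted p = 0.000559, edgeR). Its hairpin ratios had mixed signs (0.38, 0.03 and -0.04 in pairs 2, 3 and 4) and passed no test. The groups were at 515.6 ± 220.7 CPM and 541.8 ± 176.5 CPM (SD, n = 3 each) in shCtrl and shCxxc5.

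Of 34 listed Ly6-domain genes, 13 passed the filter on low counts over 6 libraries, and in replicate 2 none rose and 6 fell, with a median of -0.25 against 0.00 over all genes (18.7% of all genes tested fell and 17.7% rose). Besides Ly6a and Ly6e, the decreases were in Ly6i (-3.88), Ly6g (-2.15), Lynx1 (-1.93) and Lypd6b (-1.75), given as log2 fold changes that passed edgeR's adjusted threshold. Ly6g is the granulocyte antigen of the lineage cocktail, and it was low in every library, at 1.14 to 10.4 CPM. Its neighbours Ly6c1 (-0.04) and Ly6c2 (0.03) did not pass. Of the 50-base stretches of Ly6a transcripts, 19.0% also occur in transcripts of Ly6c1, Ly6i or I830127L07Rik, so some Ly6a reads may be counted elsewhere or not at all. In no library was Ly6c1 above 9.76 CPM, Ly6i above 3.70 CPM or I830127L07Rik above 2.15 CPM. With the Cxxc5 hairpin, 4 of 11 tested Ly6-domain genes fell in replicates 3 and 4 and none rose (over all genes, 9.0% fell and 11% rose): Lypd6b by 0.80, Ly6i by 0.70, Ly6c2 by 0.31 and Ly6a by 0.16 on the log2 scale. Ly6i did not pass in DESeq2, nor without any of shCtrl replicate 3, shCtrl replicate 4 and shCxxc5 replicate 3.

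**Figure D2:**
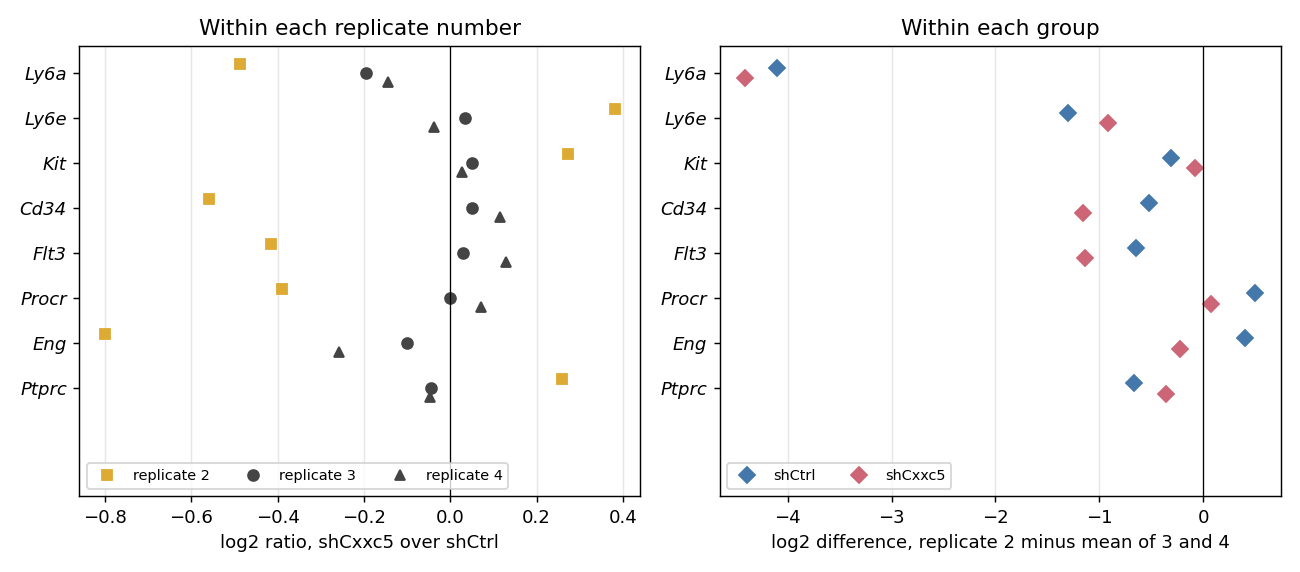
Left, log2 ratio of shCxxc5 over shCtrl within replicate numbers 2, 3 and 4 for each gene. Right, log2 difference of the replicate 2 library from the mean of replicates 3 and 4 within each group, where Ly6a sits at -4.10 and -4.41 and every other gene between -1.30 and 0.50.

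Cd34 and Flt3, which mark multipotent and lymphoid-primed progenitors, moved alike across the libraries. Cd34 lies at chr1:194938819-194961279 on the plus strand and Flt3 at chr5:147330741-147400489 on the minus strand. Cd34, a sialomucin, was at 755 CPM (shCtrl) and 513 CPM (shCxxc5) in the replicate 2 libraries, below the 1066 to 1155 CPM of the other 4. Flt3, the receptor for FLT3 ligand, was at 213.6 and 160.1 CPM in the replicate 2 libraries and at 325.9 to 356.8 CPM in the other 4. In replicate 2, Cd34 fell by 0.83 (SE 0.142, adjusted p = 0.00666) and Flt3 by 0.89 (SE 0.115, adjusted p = 0.00246) on the log2 scale in edgeR. Both were lower with the hairpin in pair 2 (log2 ratios of -0.56 for Cd34 and -0.42 for Flt3) and slightly higher in pairs 3 and 4 (0.05 and 0.12 for Cd34, 0.03 and 0.13 for Flt3). Within replicates 3 and 4, Cd34 rose by 0.09 (SE 0.0309, adjusted p = 0.0449, edgeR), from 1105 and 1066 CPM to 1143 and 1155 CPM. This call sat at the threshold: the adjusted p was 0.113 in DESeq2 and 0.110 with upper quartile scaling in edgeR, from 0.019 to 0.244 over the alternatives run, and it was lost whichever of the 4 libraries was left out. Flt3 did not pass there (0.08, SE 0.0359, adjusted p = 0.108, edgeR). Over 6 libraries neither passed, with group means of 975 ± 191.4 and 937 ± 367.3 CPM for Cd34 and 294.5 ± 70.6 and 289.3 ± 111.9 CPM for Flt3 (SD, n = 3 each) in shCtrl and shCxxc5. Cd34 shares 148 bases with the antisense gene Gm16897, and the strand setting of the counting is not given in the sources used here.

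Procr and Eng did not follow the other markers down in replicate 2. Procr (chr2:155751117-155755471, plus strand), which encodes the endothelial protein C receptor (EPCR), was the least abundant member, at 15.6, 10.9 and 11.2 CPM in shCtrl and 11.9, 10.9 and 11.7 CPM in shCxxc5. Both replicate 2 libraries lay above the other 4, though in shCxxc5 only by 1.05-fold, less than the 7.76% counting error of the lowest library. The replicate 2 difference, 0.30 on the log2 scale (SE 0.132), did not pass (adjusted p = 0.128, edgeR), nor did the hairpin difference in 6 libraries (adjusted p = 0.947) or in replicates 3 and 4 (0.873). Without shCxxc5 replicate 2 the replicate 2 difference of Procr passed (0.50, adjusted p = 0.000793, edgeR). Its 2 SE interval for the hairpin in replicates 3 and 4 ran from -0.20 to 0.27, wide enough to hold changes of the size called for Ly6a.

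Eng (chr2:32646595-32682669, plus strand), a co-receptor for TGF-beta family ligands, was at 66.1, 51.5 and 48.7 CPM in shCtrl and at 37.9, 48.0 and 40.8 CPM in shCxxc5. It was the only member whose 3 shCxxc5 libraries all lay below its 3 shCtrl libraries, as 13.1% of all genes tested did in either direction. Group means were 55.5 ± 9.36 and 42.2 ± 5.20 CPM (SD, n = 3 each). The exact two-sided permutation p was 0.100, the smallest that 3 against 3 can give. In edgeR the log2 difference of -0.39 (SE 0.158) had an unadjusted p of 0.0460 and an adjusted p of 0.940. The pair ratios were -0.80, -0.10 and -0.26 for numbers 2, 3 and 4, and in replicates 3 and 4 the difference of -0.16 (SE 0.0703) did not pass (adjusted p = 0.103, edgeR), though it did without shCxxc5 replicate 3 (-0.30, adjusted p = 0.0256). Replicate 2 was on opposite sides in the groups, 1.32-fold above the mean of replicates 3 and 4 in shCtrl and 1.17-fold below it in shCxxc5. The joint difference of 0.10 (SE 0.151, adjusted p = 0.642, edgeR) became a call of either sign when a replicate 2 library was left out: 0.39 without that of shCxxc5 and -0.24 without that of shCtrl. Eng shares 61 bases with the antisense gene Fpgs.

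Ptprc (chr1:138062861-138175708, minus strand) encodes CD45, the receptor phosphatase carried by nearly all nucleated blood cells. Its level was 356.2, 564.8 and 564.1 CPM in shCtrl and 426.0, 547.4 and 546.3 CPM in shCxxc5. The replicate 2 libraries were again below the other 4, which lay within 1.03-fold of each other. Across replicate 2, Ptprc fell by 0.51 on the log2 scale (SE 0.0769, adjusted p = 0.00431, edgeR). With the hairpin it was at 495 ± 120.3 CPM in shCtrl and 506.6 ± 69.8 CPM in shCxxc5 (SD, n = 3 each). The difference of -0.04 in replicates 3 and 4 had a 2 SE interval from -0.10 to 0.02 and did not pass (adjusted p = 0.425, edgeR).

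Counted together, 0 of the 8 members passed with the hairpin in 6 libraries, as did 0% of all genes tested in edgeR. At an unadjusted p under 0.05 there was 1 member (Eng) among 575 genes. DESeq2 called 19 genes and limma-voom 0, with 0 members in each. Within replicates 3 and 4, 1 member fell (Ly6a) and 1 rose (Cd34), where 9.0% of 14193 genes fell and 11% rose. The members' median log2 fold change was -0.04 in 6 libraries and 0.02 in replicates 3 and 4, against -0.02 and 0.00 over all genes. In replicate 2, 5 of 8 members fell and 0 rose, where 18.7% of all genes fell and 17.7% rose, and the members' median was -0.67 against 0.00. For 6 of the 8 the replicate 2 libraries did not overlap the other 4, as was so for 49.4% of all genes. The hairpin's log2 ratio in pair 2 differed from that in replicates 3 and 4 for 7 of 8 members, against 35.8% of all genes, in a fit with 2 residual degrees of freedom.

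Levels were also divided by kilobases of exon, with all annotated exons of a gene merged. That length was 1205 bases for Ly6a, 3784 for Ly6e and 18313 for Ptprc. It can exceed the length of the transcripts present, which was not measured, and the order of the genes depends on it. In replicates 3 and 4 the order was led by Ly6a with a median of 621.2 CPM per kb (range 583.7 to 667.6). Ly6e followed at 169.9 (163.8 to 176.0) and Cd34 at 154.2 (146.2 to 158.4), then Flt3 at 56.3 (52.8 to 57.8) and Ptprc at 30.4 (29.8 to 30.8), all in CPM per kb. Eng (10.1 to 12.7 CPM per kb) and Kit (11 to 12.4 CPM per kb) overlapped, and Procr was last at 5.36 to 5.78 CPM per kb. No other neighbours in that order overlapped over these 4 libraries. In replicate 2 Ly6a did not lead, at 38.5 CPM per kb in shCtrl behind Cd34 (103.6) and Ly6e (68.9), and at 27.5 CPM per kb in shCxxc5 behind Ly6e (89.8) and Cd34 (70.4). By this measure Ly6a, a gene that defines the sort, was highest of the 8 in replicates 3 and 4 but not in replicate 2.

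**Figure D3:**
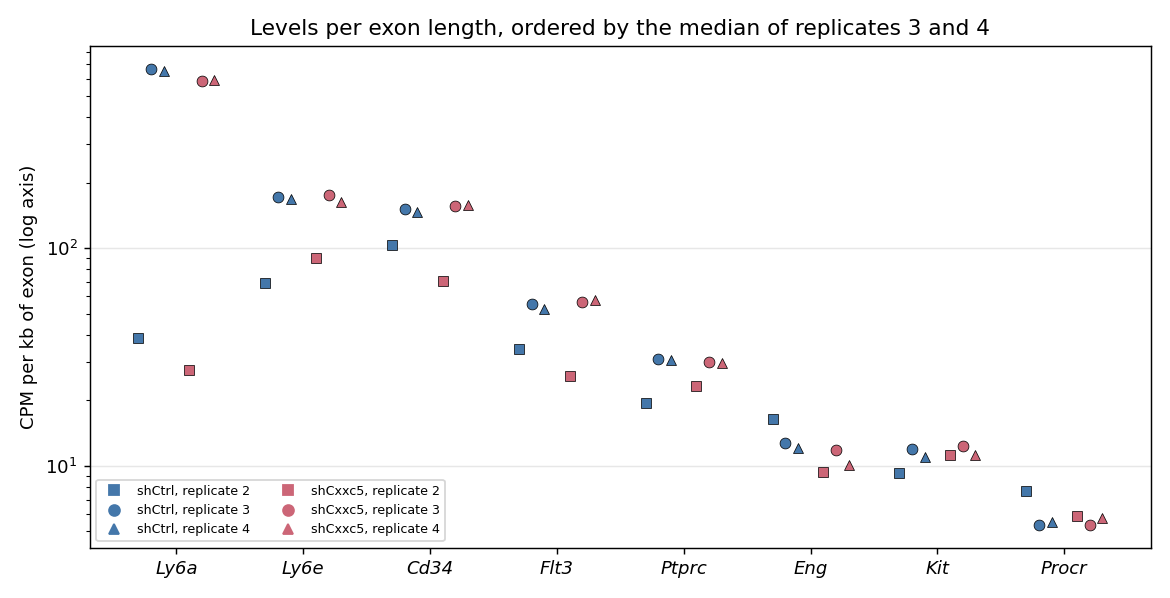
Levels per kilobase of exon (CPM per kb, log scale) of the 8 genes in each library, with all annotated exons of a gene merged. The order depends on that length. Ly6a leads in replicates 3 and 4, and in replicate 2 falls below Cd34 and Ly6e.

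The protein-coding genes whose mean-centred log2 CPM profiles lay closest to each member over the 6 libraries were found among 10814 candidates, with the root mean square difference as the measure. For Ly6a they were the interferon-induced genes Ifi27l2a (0.22), Oasl2 (0.22) and Ifit3 (0.23). For Cd34 they were Il4ra (0.03), Snn (0.04) and Camkk1 (0.05), and Flt3 had Il4ra (0.05) and Cd34 itself (0.05) as its nearest. The nearest of Ly6e was Tiparp (0.02), of Kit Tiprl (0.03), of Procr Adgrg3 (0.03), of Eng Scyl3 (0.05) and of Ptprc Eef2k (0.03). With 6 libraries, of which replicate 2 sets most of the spread, many genes can share such a profile.

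Interferon response genes and markers of other cell types moved with replicate 2 as well. Of 42 listed interferon response genes 42 fell in replicate 2 (median -2.19), against 18.7% of all genes. By smallest p the first were Ifi44 (-3.37), Ifit1 (-2.91) and Oasl2 (-3.86). Their summed level was 2656 CPM in shCtrl 2 and 2474 CPM in shCxxc5 2, against 9144 to 9624 CPM in the other 4 libraries. This moved with Ly6a and Ly6e, and its part in their fall was not tested. The interferon promoters held GAAANNGAA in 14 of 37 windows (37.8%), and no RefSeq window was matched for Ly6a or Ly6e.

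Of 17 tested megakaryocyte genes 17 rose in replicate 2 (median 4.74), where 17.7% of all genes rose and 18.7% fell. Pf4 was at 1734 and 471.1 CPM against 21.4 to 36.3 CPM. The megakaryocyte genes summed to 7952 CPM in shCtrl 2, 1931 CPM in shCxxc5 2 and 376.8 to 577.2 CPM elsewhere. Of 13 erythroid genes 12 rose (median 3.05), at summed levels of 917 and 1635 CPM against 551.6 to 631.2 CPM. Granulocyte and monocyte genes summed to 1338 CPM in shCtrl 2 and 6575 CPM in shCxxc5 2, against 2052 to 2224 CPM, with 4 of 18 higher and 7 lower. Mast cell and basophil genes summed to 343.6 and 2232 CPM against 671.7 to 808.2 CPM (3 of 12 higher, 1 lower). The replicate 2 libraries thus differed from each other as well as from the rest. The part of these cell types in the members' changes was not tested.

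**Figure D4:**
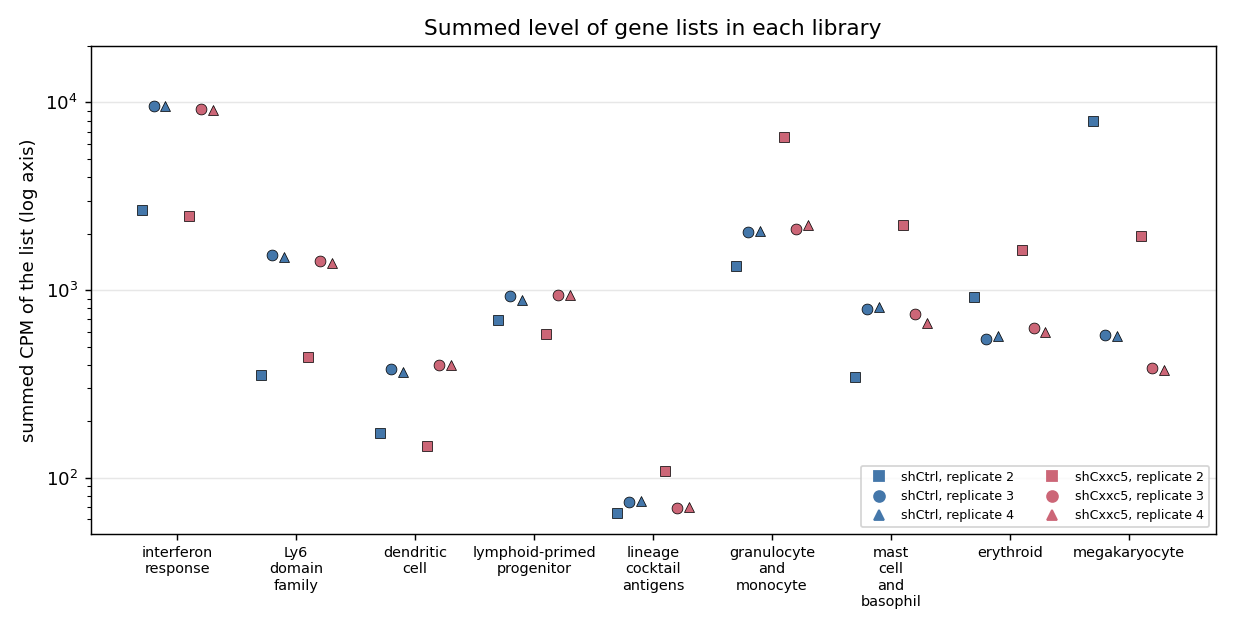
Summed CPM of each marker list (log scale) in the 6 libraries. The interferon sum is lower in both replicate 2 libraries and the megakaryocyte sum higher, while the granulocyte and monocyte sum is high in shCxxc5 replicate 2 only.

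Dendritic cell genes fell in replicate 2 for 4 of 5 tested (median -0.88). Lymphoid-primed genes fell for 4 of 11 (median -0.26). No gene rose in either list, where 18.7% of all genes fell and 17.7% rose. Like Flt3 and Cd34, both sums were lower in the replicate 2 libraries. Dendritic levels were 172.4 and 147.1 CPM against 364.5 to 398.8 CPM. Most of that fall lay in Bst2, at 31.4 and 31.3 CPM against 191.9 to 216.8 CPM. Lymphoid-primed levels were 689 and 582.6 CPM against 885.6 to 944.9 CPM. Flt3 is itself counted in that list, with 213.6 and 160.1 CPM against 325.9 to 356.8 CPM, and is among its decreases. That this list moved with Flt3 was therefore partly fixed in advance. Genes of endothelial cells, which also carry EPCR and endoglin, were higher in replicate 2 for 7 of 10 tested and lower for 1 (median 0.94), with Tek (2.28), Esam (3.18) and Flt1 (0.71) among the higher. Tek, Esam, Tie1, Emcn and Robo4 are also in the list of other stem and progenitor surface genes, so their rises are counted in both. The endothelial sum was 594.5 CPM in shCtrl 2 and 392.9 CPM in shCxxc5 2, against 399.4 to 458.6 CPM. Cdh5, too low to be tested, was at 0.135 to 0.309 CPM. The part of these cells in the levels of Procr and Eng was not tested.

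The lineage antigens that the gate removes were low throughout. Cd3e had 0 counts in all 6 libraries and Itgam was at 14.9 to 27.1 CPM. The summed level of the lineage list was 64.7 CPM in shCtrl 2 and 109.2 CPM in shCxxc5 2, against 68.9 to 74.8 CPM. Of 8 tested lineage genes, 2 fell in replicate 2, Ly6g (-2.15) and Cd5 (-2.41), and 1 rose, where 18.7% of all genes fell and 17.7% rose. The Kit and lineage transcripts thus went with the label in all libraries, while Ly6a was low in the replicate 2 libraries.

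Other surface genes of stem and progenitor cells changed in both directions in replicate 2, with 17 of 39 higher and 8 lower (median 0.25), against 17.7% and 18.7% of all genes. Cd81, a tetraspanin, rose by 1.63, while Cd244a and Cd27, receptors used to separate progenitor subsets, fell by 1.69 and 1.66 on the log2 scale. With the hairpin in replicates 3 and 4, 3 of 39 rose and 11 fell (median -0.11), where 9.0% of all genes fell and 11% rose (median 0.00). Those that fell included the integrin subunits Itgb3 (-0.69) and Itga2b (-0.56) and the C-type lectin receptor Cd93 (-0.36). No gene of this list passed in 6 libraries.

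Itgb3 and Itga2b are also megakaryocyte genes, and markers of other cell types were counted for the hairpin in replicates 3 and 4. Over all genes tested there, 9.0% fell and 11% rose. Of 15 tested megakaryocyte genes 7 fell and 0 rose (median -0.48), among them Pf4 (-0.68) and Vwf (-0.93). Their summed level was 577.2 and 572.8 CPM in shCtrl replicates 3 and 4 and 384.5 and 376.8 CPM in shCxxc5. Of 13 erythroid genes 5 fell and 1 rose (median -0.48), with Aqp1 (-0.74), Car2 (-0.30) and Gata1 (-0.55) lower and Tfrc (0.28) higher. By sign, 11 lay below 0 and 2 above. The erythroid sum was 631.2 and 598.8 CPM in shCxxc5 replicates 3 and 4, against 551.6 and 570.5 CPM in shCtrl. Tfrc held most of that sum, at 521.6 and 496.1 CPM against 410.4 and 429.7 CPM. The higher sum thus went with Tfrc and not with most of the list. Granulocyte and monocyte genes rose for 5 and fell for 6 of 18, and mast cell and basophil genes rose for 3 and fell for 5 of 12. Endothelial genes fell for 2 of 10, dendritic cell genes rose for 2 of 5, and lymphoid-primed genes rose for 2 and fell for 1 of 11. All of these lists are short. Few calls separate the endothelial, dendritic cell and lymphoid-primed lists from the shares of all genes. The marker changes sit beside the small changes of Ly6a and Cd34 in the same libraries, and their part in those changes was not tested.

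Partners of the members were taken next. Of the signalling genes downstream of KIT and FLT3, 9 of 29 rose and 5 fell in replicate 2 (median -0.02), where 17.7% of all genes rose and 18.7% fell. The cytokine signalling inhibitor Socs1 fell by 1.16 and the phosphatase Ptpn6 by 0.53, while Src, among the 9 that rose, did so by 2.66. With the hairpin in replicates 3 and 4 none of the 29 rose and 6 fell, where 9.0% of all genes fell and 11% rose. Src (-0.65) and Spry2 (-0.41) were among the 6. The ligands, made mostly by other cells, were low: Kitl at no more than 0.243 CPM and Flt3l at 3.70 to 10.1 CPM.

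Among the partners of EPCR and endoglin (protein C pathway and TGF-beta receptors), 6 of 16 rose and 5 fell in replicate 2, beside the same shares of all genes. The thrombin receptor genes F2rl2 (5.07) and F2r (1.37) rose and Tgfbr1 (-0.97) fell. With the hairpin in replicates 3 and 4, Tgfbr1 rose by 0.29 while Tgfbr2 fell by 0.18 and F2r by 0.39, and 2 of 16 rose and 2 fell in all, close to the 11% and 9.0% of all genes. For CD45, 2 of 17 related phosphatase and substrate genes rose and 4 fell in replicate 2, close to the 17.7% and 18.7% of all genes. These included the CD45-associated protein gene Ptprcap (-0.59) and the substrate kinase gene Lck (-0.85). With the hairpin in replicates 3 and 4, 1 of 17 rose (Hnrnpl, 0.14) and 5 fell, among them Fyn (-0.27), beside 11% and 9.0% of all genes. Of the interferon genes, 17 of 42 fell and 2 rose in that comparison (median -0.06; 9.0% of all genes fell and 11% rose), with Cxcl10 (-0.91) and Usp18 (-0.22) lower. In all 6 libraries 0 genes of these lists passed in edgeR.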

How the data were processed

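The authors deposited raw read counts per gene for 6 libraries. Per the submitters' processing notes, STAR 2.5.2b, featureCounts 1.5.1 and DESeq2 were used with GRCm38. Whether a library was run as 50-cycle single or 125-cycle paired reads is not said in the labels' protocols. For the annotation release and for multimapped reads, the choices were not given in the sources used here. GENCODE M21 gave a symbol to 49412 identifiers and none to 259.

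Members and gene lists were chosen with earlier results of these data known, so no test here is independent of them. Counts were tested with edgeR 4.0.16 (R 4.3.3): TMM scaling, filterByExpr, robust quasi-likelihood fits on the group, Benjamini-Hochberg adjustment over all genes tested and a threshold of 0.05. Positive values are shCxxc5 over shCtrl, or replicate 2 over replicates 3 and 4. SE was derived from the size of the log2 fold change over the root of its F statistic, and log2 CPM values were computed with a prior count of 2. From each list the 3 tested genes of smallest unadjusted p were named, with the 3 genes nearest each member in profile; others (such as marker levels) were chosen after their values were seen. Some genes that this rule takes are left out of the text.

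Deviations from group means correlated between same-numbered libraries at 0.67, 0.554 and 0.489. Replicate 2 stands apart in both groups and enters each group mean, so these values cannot tell whether numbers 3 and 4 pair the samples. The chi-square per gene between groups was 10.6 and 8.38 for equal numbers (3 and 4). For unequal numbers it was 9.63 and 9.22. The labels state no pairing, so a pair in the text means libraries of equal number, and the replicate block was run only as an alternative. Alternatives were DESeq2 1.42.0, limma-voom (limma 3.58.1), edgeR without robust fitting, other scalings and filters, a replicate block and leaving out each library. The code was tested on simulated data.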

Additional observations from a re-analysis of the deposited data

Results flagged for a closer look

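For 7 of the 8 genes the effect of the Cxxc5 hairpin in the replicate 2 pair differed from that in replicates 3 and 4, by an interaction term in edgeR with Benjamini-Hochberg adjustment over all genes, where 35.8% of all genes passed. Only replicates 3 and 4 supply its 2 residual degrees of freedom, so the single replicate 2 library of each group is taken to vary as they do. The difference of the log2 ratios was -0.64 for Cd34 (adjusted p = 1.84e-12, edgeR), -0.63 for Eng (1.76e-05), -0.49 for Flt3 (6.18e-08) and -0.32 for Ly6a (0.0011). It was 0.38 for Ly6e (4.18e-06), 0.30 for Ptprc (5.31e-05) and 0.24 for Kit (0.0309), all adjusted p from edgeR. Cd34, Flt3 and Ptprc had opposite signs in pair 2 and in pairs 3 and 4. Ly6a and Eng were lower, and Kit higher, in all 3 pairs. Procr did not pass (-0.42, adjusted p = 0.0666, edgeR). The marker sums of other cell types also differed between the replicate 2 libraries. Cxxc5 itself went from 82.2 CPM in shCtrl to 6.74 CPM in shCxxc5 in pair 2. In pairs 3 and 4 it went from 59.9 to 17.4 CPM and from 57.9 to 17.9 CPM. The part of the marker sums and of the Cxxc5 level in these differences was not tested.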

How the results depend on the processing

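Over 6 libraries 0 members passed under every alternative run, the replicate block included, while DESeq2 called 19 genes of all. In replicates 3 and 4 the 2 calls became 1 (Ly6a) with DESeq2 size factors in edgeR, upper quartile scaling, library totals, no filter, DESeq2, or no robust fitting, and 1 to 2 with a library left out. With the replicate block they stayed 2 there, Ly6a and Cd34, and the block changed no member's call. Without shCxxc5 replicate 3, Ly6a and Eng (-0.30, adjusted p = 0.0256, edgeR) passed. In replicate 2 against the rest the 5 decreases became 6 with no filter (Kit added, adjusted p = 0.0436, edgeR), and 5 to 8 members passed with a library left out. The 8 came without shCxxc5 replicate 2, where Procr (0.50) and Eng (0.39) were higher and Kit lower (-0.32). Without shCtrl replicate 2 there were 6, with Eng lower (-0.24, adjusted p = 0.0151, edgeR). For the difference between pairs, 6 to 7 passed, Kit being lost in DESeq2, without robust fitting, and without shCtrl replicate 3 or shCxxc5 replicate 4.

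Ly6a fell under every alternative in replicates 3 and 4 (-0.19 to -0.15) and in replicate 2 (-4.42 to -4.10). Signs turned for Ly6e in replicates 3 and 4 with upper quartile scaling (-0.0118) and library totals (-0.022). With each library left out in turn, fold changes over 6 libraries ran from -0.72 to 0.38 for Ly6a, -0.25 to 0.32 for Ly6e, -0.23 to 0.24 for Cd34, -0.21 to 0.27 for Flt3, -0.21 to 0.0625 for Procr and -0.16 to 0.15 for Ptprc. In replicates 3 and 4 they ran from -0.0467 to 0.0553 for Ly6e, -0.0336 to 0.11 for Kit and -0.0119 to 0.10 for Procr, and for Eng in replicate 2 from -0.24 to 0.39. Among other named genes of replicates 3 and 4, Ly6i, Spry2 and Tgfbr2 lost their calls in DESeq2, and these, Hnrnpl and Fyn with some library left out, without a change of sign. A lone library left in a group was assumed to vary like the others.

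Over all genes, calls in replicates 3 and 4 were 2833, against 1353 in DESeq2 and 1507 to 2043 with a library left out. In replicate 2 they were 5330, against 3183 without shCtrl replicate 3, 3531 without shCtrl replicate 4 and 8816 without shCxxc5 replicate 2. For the difference between pairs they were 5235, against 2390 in DESeq2. With library totals the share of lower calls went from 45.1% to 58.9% in replicates 3 and 4 and from 51.4% to 40.3% in replicate 2. The cause of these shifts was not tested.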
